A study of Homo sapiens with 6 samples.

Results

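The proteasome genes are the 48 genes, of 60589 in the deposited table, whose symbol is PSM followed by a letter from A to G and a number. The rule uses names only and no measured value. The genes were read in SNU449 cells, an established line from a human hepatocellular carcinoma, of which 3 libraries came from cells given a control siRNA (siControl) and 3 from cells given an siRNA against MAD2L1 (siMAD2L1). All 6 were collected at day 3, and cells of both groups were grown in the same serum-supplemented medium. The question is how transcript levels in liver cancer cells respond to loss of MAD2L1, which encodes a protein of the spindle checkpoint. It rests on 1 cell line, and the labels name neither the siRNA sequences nor separate cultures, so each p-value reflects only how far the 6 libraries scatter, which may be technical.

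The proteasome is the large protease that degrades ubiquitin-tagged proteins, among them the cyclins and securin that must go before a cell can leave mitosis. Its hollow core is built of stacked rings of alpha and beta subunits, and 3 of the beta subunits cut peptide bonds. Caps on the ends of the core recognise and unfold the substrates. Interferons induce substitute catalytic subunits, which form the immunoproteasome and change the peptides that are shown on MHC class I molecules, and dedicated chaperones help to assemble core and cap.

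By role, the 48 genes are 7 alpha subunits and 7 constitutive beta subunits of the core, 3 inducible catalytic subunits, 2 tissue-restricted core subunits, 6 ATPases and 11 other subunits of the cap, 5 genes for other caps and an inhibitor, and 7 assembly chaperones. A mean of at least 1 TPM (a share of all transcripts, corrected for transcript length and scaled to a total of 1000000) over the 6 libraries was reached by 46 of them, and these were tested. The other 2 are PSMA8, the alpha subunit of the testis, which was listed at 0 in every library, and PSMB11, the beta subunit of the thymic cortex, which was listed at 0.082 TPM in siControl replicate 1 and at 0 elsewhere.

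MAD2L1 measured 14.5, 13.7 and 13.9 TPM in siControl and 4.47, 0.795 and 2.40 TPM in siMAD2L1 replicates 1, 2 and 3 (log2 fold change -2.22, SE 0.357, limma adjusted p = 0.0105, exact permutation p = 0.1, the smallest that 3 libraries against 3 allow). Its adjusted p was 0.0597, 0.0547 and 0.0572 without siControl replicate 1, 2 and 3. The treatment field names MAD2L2 for siMAD2L1 replicate 2 and MAD2L3 for replicate 3 where the titles name MAD2L1, and MAD2L2 did not pass (log2 fold change -0.07, limma adjusted p = 0.698). Mitochondrial transcripts took 15.2% to 15.4% of the TPM in siControl and 9.21% to 10.9% in siMAD2L1, and genes above 0 TPM numbered 24056 to 24258 and 22514 to 23630. Of the markers of hepatocytes, ALB reached at most 0.451 TPM, and APOB and TTR were listed at 0 in every library. The 10 hepatocyte markers summed to 17.8 to 23.6 TPM in siControl and 7.99 to 13.8 TPM in siMAD2L1. Of the 4 that could be tested, the plasma proteins TF (log2 fold change -0.97, limma adjusted p = 0.0181) and FGB (-1.17, adjusted p = 0.0142) fell. Of 4 tested mesenchymal markers the collagen gene COL1A2 fell (log2 fold change -0.74, limma adjusted p = 0.00187), and VIM, at 9128 TPM or more in every library, did not pass (0.19, adjusted p = 0.114). Of 4 tested epithelial markers the keratins KRT8 (log2 fold change -0.44, limma adjusted p = 0.0101) and KRT18 (-0.55, adjusted p = 0.00662) fell. The part of these cell-state markers in the results was not tested.

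Of the 46 tested proteasome genes, 5 fell in siMAD2L1 and 1 rose, at an adjusted p under 0.05 in limma. The 5 that fell were the inducible catalytic subunits PSMB8 and PSMB9, the activator subunit PSME2, and the alpha subunits PSMA1 and PSMA2. The 1 that rose was PSMF1, a proteasome inhibitor. Among all 14790 tested genes 9.78% were called, 6.23% lower and 3.55% higher, so the shares among the proteasome genes (10.9% and 2.17%) lay near that background. Over all genes the calls were 525 higher and 921 lower (63.7% lower), but the lower share of calls was 50.5% under quantile normalization, 52.5% under upper-quartile scaling, 44.3% once a trend with transcript length was removed, and 73.3% without mitochondrial and the 20 highest genes.

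The median log2 fold change of the 46 was -0.11, beside -0.08 over all tested genes. The siMAD2L1 range lay below the siControl range for 18 of the 46 and above it for 2, where 21.5% and 11.3% of all tested genes did so. The share below was thus larger than over all genes and the share above smaller. Whether ranges overlap also depends on scatter, which was smaller for the proteasome genes. Their median coefficient of variation was 5.22% in siControl and 9.22% in siMAD2L1, beside 10.6% and 17.1% over all tested genes. The part of scatter in these shares was not tested. Together the 48 genes took 0.698%, 0.671% and 0.715% of the TPM in siControl and 0.635%, 0.668% and 0.664% in siMAD2L1. The 2 groups did not overlap in this share, but siMAD2L1 replicate 2 lay just under siControl replicate 2. Of the TPM that were not mitochondrial they took 0.824%, 0.791% and 0.844% in siControl and 0.701%, 0.736% and 0.745% in siMAD2L1, where the groups were farther apart. Less RNA per cell and fewer cells that hold a transcript cannot be told apart in these bulk libraries.

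**Figure D1:**
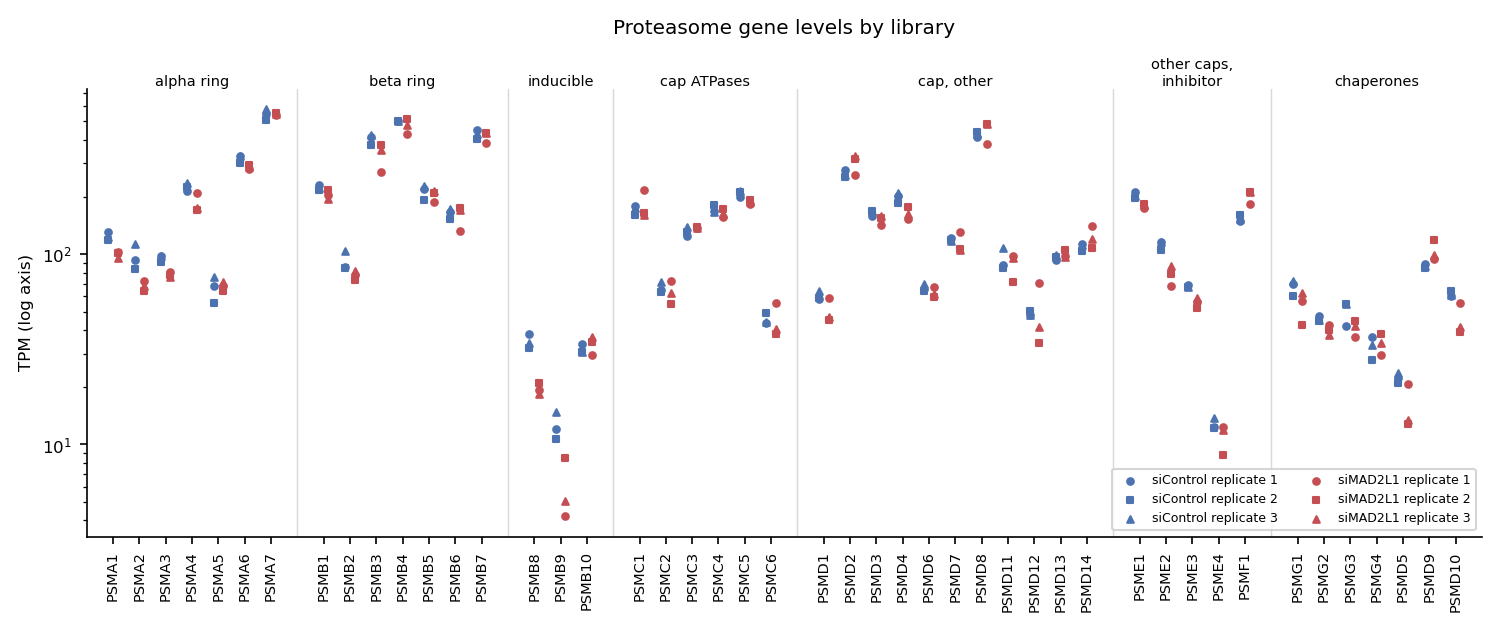
Level of each tested proteasome gene in TPM (log axis) in the 3 siControl libraries (blue) and the 3 siMAD2L1 libraries (red), ordered by role, with 1 marker shape per replicate number. PSMA7 (506 to 580.0 TPM) and PSMB4 (429 to 512 TPM) are the highest, PSMB8 and PSMB9 are among the lowest, and for most genes the colours lie close together.

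The inducible subunits PSMB8 and PSMB9 changed by the largest factors. They replace the constitutive catalytic subunits PSMB5 and PSMB6 when an immunoproteasome is built, as PSMB10 replaces PSMB7. PSMB8 measured 37.9, 32.0 and 34.0 TPM in siControl and 19.4, 21.1 and 18.5 TPM in siMAD2L1. Every siMAD2L1 library thus lay well below every siControl library, at 56.8% of the siControl mean (log2 fold change -0.78, SE 0.107, limma adjusted p = 0.00612). This call was kept in all 20 alternative fits, including the 6 that each omit 1 library (adjusted p up to 0.0422).

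PSMB9 measured 12.1, 10.7 and 14.9 TPM in siControl and 4.19, 8.47 and 5.06 TPM in siMAD2L1. The groups did not overlap, and replicate 2 was the highest of the siMAD2L1 libraries. The mean stood at 47.0% of siControl (log2 fold change -1.01, SE 0.238, limma adjusted p = 0.0376). The call ended without siControl replicate 1, 2 or 3 (adjusted p = 0.126, 0.0904 and 0.144) or siMAD2L1 replicate 3 (0.117). It also ended with upper-quartile scaling (0.0558), quantile normalization (0.0853), a length trend removed (0.0562), no filter on low genes (0.114) and no variance trend (0.0625).

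PSMB10, the remaining inducible subunit, did not pass. It measured 33.7, 30.8 and 30.8 TPM in siControl and 29.5, 34.5 and 36.7 TPM in siMAD2L1, with overlapping ranges (log2 fold change 0.07, 95% interval -0.18 to 0.32, limma adjusted p = 0.720). The inducible subunits therefore did not move as a block, since PSMB8 and PSMB9 fell and PSMB10 stayed within the spread of its libraries.

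Set against the constitutive subunit it replaces, PSMB8 stood at 16.2% ± 1.13 of the PSMB5 level in siControl and at 9.64% ± 0.91 in siMAD2L1 (SD, n = 3 each; exact permutation p = 0.1). PSMB9 stood at 7.59% ± 0.881 of PSMB6 in siControl and at 3.65% ± 1.04 in siMAD2L1 (SD, n = 3 each; exact permutation p = 0.1). PSMB10 stood at 7.42% ± 0.238 of PSMB7 in siControl and at 8.05% ± 0.407 in siMAD2L1 (SD, n = 3 each; exact permutation p = 0.1). These are ratios of TPM within a library, so a scaling that multiplies a whole library leaves them as they are. The groups did not overlap in any of the 3 ratios, and the third ran the other way. In every library each inducible subunit stood at 17.1% of its constitutive counterpart or less.

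**Figure D2:**
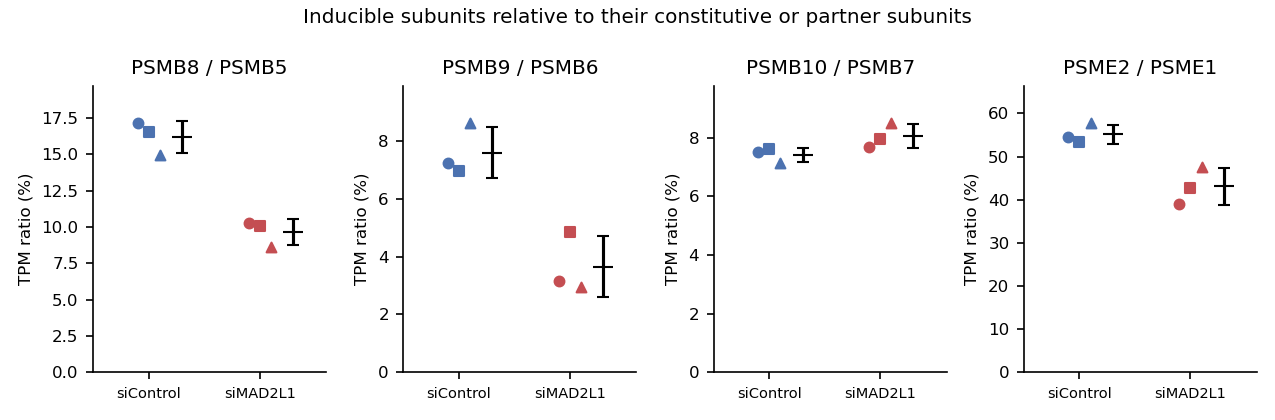
TPM of PSMB8, PSMB9 and PSMB10 as a percent of the constitutive subunit each replaces, and of PSME2 as a percent of PSME1, in each library (points), with the mean and SD of each group (black). PSMB8, PSMB9 and PSME2 are lower against their counterparts in every siMAD2L1 library, and PSMB10 is slightly higher.

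PSMB8 lies on the minus strand of chromosome 6 (chr6:32840717-32844703, GRCh38, GENCODE 29) beside PSMB9 on the plus strand (chr6:32844136-32859585), and the 2 share 139 exonic bases. The library kit is not described as marking strand, so reads from those bases cannot be told apart. Between and beside them in the MHC lie TAP1 and TAP2, which encode the paired subunits of the peptide transporter that serves MHC class I molecules and which are named here after their values were seen. The RefSeq starts of TAP1 and PSMB9 lie 488 bases apart and point away from each other. TAP1 measured 27.7, 27.0 and 24.7 TPM in siControl and 26.5, 27.5 and 27.2 TPM in siMAD2L1 and did not pass (log2 fold change 0.03, limma adjusted p = 0.873). TAP2 measured 12.8, 11.6 and 13.4 TPM in siControl and 6.27, 5.81 and 9.14 TPM in siMAD2L1 and fell (log2 fold change -0.77, SE 0.176, limma adjusted p = 0.0341, and 0.133 without siControl replicate 3). TAP2 was thus called lower and TAP1 was not, where 6.23% of all tested genes were called lower. The stretch was read because PSMB8 and PSMB9 fell, so their calls are no separate result about it.

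Leukocytes carry high levels of the immunoproteasome, so their markers were read beside it. CD3E was listed at 0 in every library and PTPRC reached at most 0.060 TPM. CD14, a receptor of monocytes, measured 11.3, 5.24 and 6.01 TPM in siControl and 2.95, 2.90 and 4.43 TPM in siMAD2L1, with ranges that did not overlap, and did not pass (log2 fold change -0.89, limma adjusted p = 0.0851). The 6 leukocyte markers summed to 69.7 to 77.2 TPM in siControl and to 129 to 149.6 TPM in siMAD2L1. Most of that was CD68, a lysosomal protein that other cells also make, which rose (log2 fold change 1.05, SE 0.0887, limma adjusted p = 0.00114). The part of these markers in the result was not tested.

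The promoters of the genes that interferons induce often hold an interferon-stimulated response element, a site for factors such as IRF1. Its core, GAAA followed by any 2 bases and GAAA again, was searched for on both strands after the values were seen. It occurred in the 300 bases around the start (250 before, 50 after; RefSeq, GRCh38.p14) of 7 of the 42 proteasome genes with a promoter sequence (16.7%) and of 4.4% of all genes. The genes were PSMA4, PSMB4, PSMB8, PSMB10, PSME1, PSME2 and PSMG4. PSMB9 held no match in this window. The stretches below are shown because PSMB8 and PSME2 fell, whereas PSMB10 and PSME1 carry the same letters and were not called. They read 5′ to 3′ on the strand of the gene, with the match in capitals; in PSMB8 and PSME1 the match is on the opposite strand.
PSMB8, chr6:32844032-32844060, minus strand: atctgtggcTTTCGCTTTCacttcctcct
PSME2, chr14:24146619-24146647, minus strand: ctggggagtGAAAGCGAAAgcccgggcga
PSMB10, chr16:67936852-67936880, minus strand: ggtaaaggcGAAAGCGAAAgcaggaagta
PSME1, chr14:24136190-24136218, plus strand: ccctaccgcTTTCGCTTTCccttcgcggt
All 4 hold the same 10 letters on 1 strand or the other. PSMB8 and PSME2 were called lower, PSME1 lay below siControl in every siMAD2L1 library without passing, and PSMB10 overlapped siControl. The part of the match in these values was not tested. IRF1, named after its values were seen, was lower in siMAD2L1 (log2 fold change -0.69, SE 0.129, limma adjusted p = 0.0177, and 0.0907 without siControl replicate 1). Its part in the result was not tested.

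PSME1 and PSME2 together form an activator ring that opens the core without ubiquitin and is also induced by interferon. PSME2 measured 115, 105 and 116 TPM in siControl and 68.1, 78.5 and 86.5 TPM in siMAD2L1. The groups did not overlap and replicate 1 was the lowest (69.2% of siControl, log2 fold change -0.53, SE 0.104, limma adjusted p = 0.0198). The call ended without siControl replicate 1, 2 or 3 (adjusted p = 0.0942, 0.0557 and 0.0920) or siMAD2L1 replicate 2 (0.0535). It also ended with upper-quartile scaling (0.0588), with a length trend removed (0.0685), without a filter on low genes (0.0575) and without a variance trend (0.0586). PSME1 measured 212, 197 and 202 TPM in siControl and 174, 183 and 182 TPM in siMAD2L1. Its ranges did not overlap either, but the difference was smaller and did not pass (log2 fold change -0.18, SE 0.0677, limma adjusted p = 0.143). The partners were thus unequally lower, with PSME2 at 55.2% ± 2.25 of PSME1 in siControl and 43.2% ± 4.28 in siMAD2L1 (SD, n = 3 each; exact permutation p = 0.1).

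PSMF1, which was first described as an inhibitor that binds the core in competition with the caps, rose. It measured 149, 162 and 154 TPM in siControl and 185, 211 and 214 TPM in siMAD2L1. All siMAD2L1 libraries lay above all siControl libraries, with replicate 1 the nearest (log2 fold change 0.39, SE 0.0823, limma adjusted p = 0.0266). The call held without siMAD2L1 replicate 1 and ended with each of the other 5 libraries left out (adjusted p = 0.125, 0.0654 and 0.103 without siControl replicates 1, 2 and 3, and 0.0776 and 0.0949 without siMAD2L1 replicates 2 and 3). It ended too without a filter on low genes (0.0637) and without a variance trend (0.0843). PSME3, whose product activates the core in the nucleus, had log2 fold change -0.28 and did not pass (limma adjusted p = 0.0710). PSME4, a large single-chain activator, had log2 fold change -0.21 (limma adjusted p = 0.427).

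**Figure D3:**
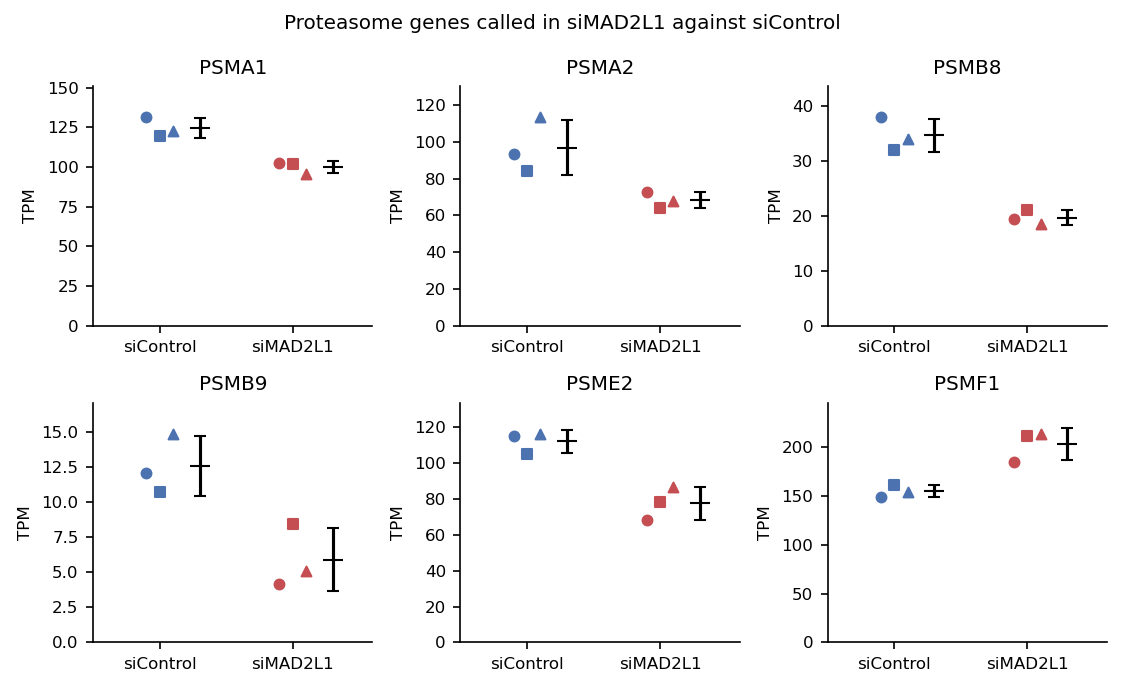
TPM of the 6 called proteasome genes in each library (points), with the mean and SD of each group (black). In each panel the siControl and siMAD2L1 points do not overlap, and PSMF1 is the 1 gene that is higher in siMAD2L1.

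The alpha ring forms the gate of the core. Of its 7 genes 2 fell and none rose, where 6.23% of all tested genes fell, and the median log2 fold change was -0.28, beside -0.08 over all tested genes. PSMA1 measured 131, 119 and 123 TPM in siControl and 102, 102 and 95.7 TPM in siMAD2L1 (80.3% of siControl, log2 fold change -0.31, SE 0.0753, limma adjusted p = 0.0399). PSMA2 measured 93.05, 84.0 and 113 TPM in siControl and 72.6, 64.1 and 67.9 TPM in siMAD2L1 (70.5% of siControl, log2 fold change -0.49, SE 0.119, limma adjusted p = 0.0409). In both genes the groups did not overlap, and in PSMA2 the siControl libraries were the more spread.

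Neither call was firm. Both ended with each library other than siMAD2L1 replicate 1 left out, with adjusted p between 0.0790 and 0.171 for PSMA1 and between 0.0529 and 0.126 for PSMA2. After removal of a trend with transcript length the adjusted p was 0.142 for PSMA1 and 0.0812 for PSMA2, with upper-quartile scaling 0.107 and 0.0679, without a filter on low genes 0.0649 and 0.106, and without a variance trend 0.112 and 0.0882. Quantile normalization ended the call of PSMA2 (0.0514). PSMA2 shares 14.6% of its exonic bases with the readthrough gene AC010132.3 on the same strand, whose mean was 9.81 TPM in siControl and 11.8 TPM in siMAD2L1 (limma adjusted p = 0.440). PSMA1 likewise shares 24.7% with AC018523.2, with means of 3.84 and 1.14 TPM (adjusted p = 0.0616). How reads were divided between such pairs is not given in the sources used here, so these values are uncertain.

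The other alpha subunits ran from log2 fold change -0.29 for PSMA4 to 0.04 for PSMA5. PSMA3 (-0.28, limma adjusted p = 0.0578), PSMA4 (adjusted p = 0.0999) and PSMA6 (-0.16, adjusted p = 0.183) had siMAD2L1 ranges below those of siControl and did not pass. PSMA7, the most abundant alpha subunit, measured 545, 506 and 580.0 TPM in siControl and 539, 552 and 547 TPM in siMAD2L1, well inside the siControl range. PSMA6, the next, measured 327, 303 and 330.2 TPM in siControl and 280.4, 293 and 287 TPM in siMAD2L1. Although each alpha subunit enters the ring in the same number of copies, their mean levels in siControl spanned 8.18-fold, from PSMA5 to PSMA7, and in siMAD2L1 8.03-fold.

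None of the 7 constitutive beta subunits passed, where 9.78% of all tested genes were called, and their median log2 fold change was -0.09. All 7 had a log2 fold change below 0, from -0.29 for PSMB3 (limma adjusted p = 0.187) to -0.04 for PSMB7 (adjusted p = 0.775), but with a transcript-length trend removed PSMB4, PSMB5, PSMB6 and PSMB7 lay just above 0. PSMB4, the most abundant, measured 504, 501 and 505 TPM in siControl and 429, 512 and 477 TPM in siMAD2L1. PSMB7, a catalytic subunit, measured 449, 405 and 431 TPM in siControl and 383, 434 and 432 TPM in siMAD2L1. In both genes replicate 1 was the lowest of all 6 libraries, while replicates 2 and 3 lay nearer the siControl values. PSMB3 showed the same order more widely, with 415, 375 and 421 TPM in siControl and 271, 375 and 353 TPM in siMAD2L1. Of the other catalytic subunits, PSMB5 had a log2 fold change of -0.07 (limma adjusted p = 0.683) and PSMB6 of -0.06 (adjusted p = 0.806).

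**Figure D4:**
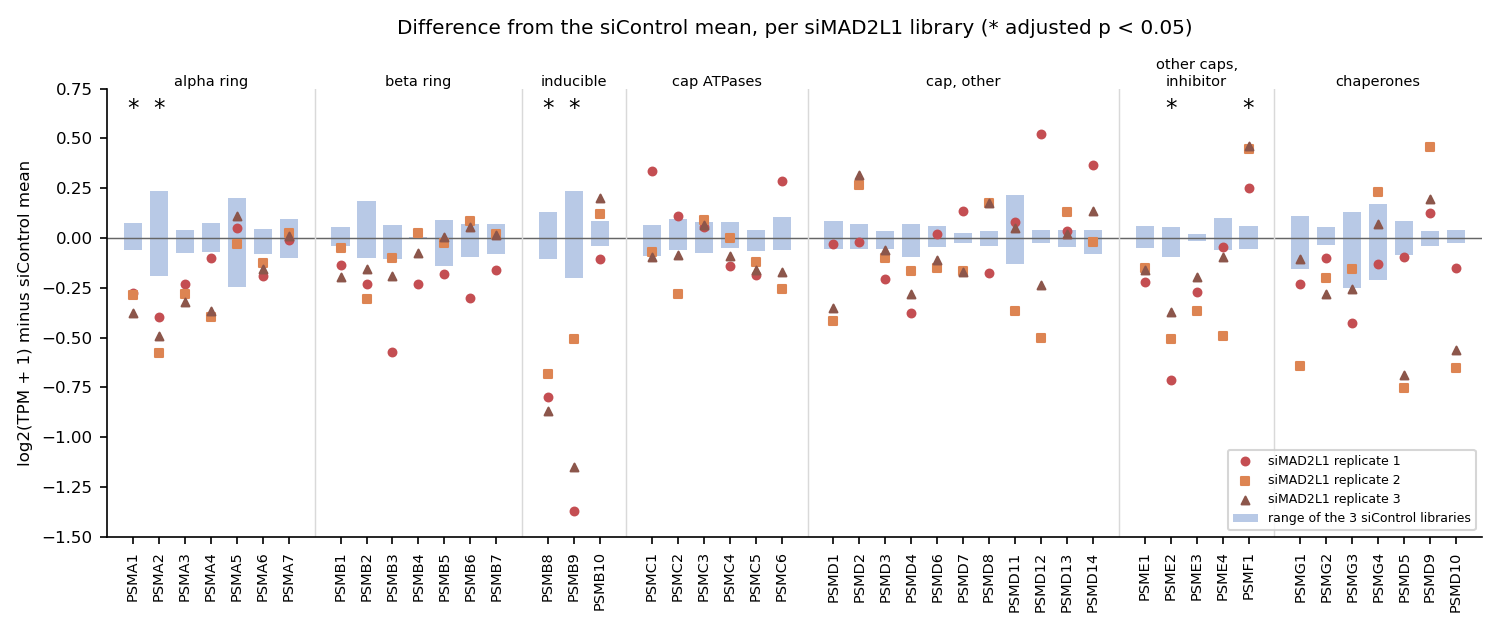
Difference of each siMAD2L1 library from the siControl mean on the log2(TPM + 1) scale for the 46 tested genes, by role, with the range of the siControl libraries as bars and called genes starred. PSMB8, PSMB9, PSME2, PSMA1 and PSMA2 lie below the bars in all 3 libraries and PSMF1 above, while several cap genes have replicate 1 on the other side of the bar from replicates 2 and 3.

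The cap that feeds ubiquitin-tagged proteins into the core did not have a called gene. None of its 17 tested genes, 6 ATPases that unfold the substrate and 11 other subunits, passed, where 9.78% of all tested genes were called. The median log2 fold change of the 17 was -0.07. PSMC5, the most abundant ATPase, measured 199.8, 213 and 215 TPM in siControl and 184, 192 and 187 TPM in siMAD2L1 (log2 fold change -0.16, limma adjusted p = 0.190). PSMC1 measured 179.9, 162 and 175 TPM in siControl and 217, 164 and 161 TPM in siMAD2L1 (log2 fold change 0.06, limma adjusted p = 0.810). For PSMC1, replicate 1 was the highest of all libraries and replicates 2 and 3 were at the low end of siControl. It shares 75.8% of its exonic bases with NRDE2 on the opposite strand, which had a mean of 4.53 TPM. PSMC2, PSMC3, PSMC4 and PSMC6 had log2 fold changes from -0.09 to 0.07.

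Among the other cap subunits PSMD8, a lid component, measured 415, 437 and 428 TPM in siControl and 378, 483 and 482 TPM in siMAD2L1 (log2 fold change 0.06, limma adjusted p = 0.756). PSMD2, a scaffold that docks shuttle proteins, measured 278, 255 and 261 TPM in siControl and 261, 318 and 329 TPM in siMAD2L1 (log2 fold change 0.19, limma adjusted p = 0.276). Here replicates 2 and 3 lay above the siControl range and replicate 1 below or inside it. PSMD4, a ubiquitin receptor, had log2 fold change -0.28 with ranges that did not overlap and did not pass (limma adjusted p = 0.0776). PSMD14, the enzyme that cuts ubiquitin off the substrate, had log2 fold change 0.16 (limma adjusted p = 0.390). The rest, PSMD1, PSMD3, PSMD6, PSMD7, PSMD11, PSMD12 and PSMD13, ran from -0.27 to 0.06.

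PSMD12, a lid subunit, had siMAD2L1 libraries on both sides of siControl. It measured 47.9, 50.1 and 48.2 TPM in siControl and 70.4, 34.0 and 41.2 TPM in siMAD2L1, so replicate 1 lay above the siControl range and replicates 2 and 3 below it. The coefficient of variation was 2.45% in siControl and 39.7% in siMAD2L1. Replicate 1 lay above the siControl mean with replicates 2 and 3 below it for 6 of the 46 genes (13.0%, against 18.9% of all tested genes). These 6, named after their values were seen, were PSMC1, PSMC2, PSMC6, PSMD6, PSMD7 and PSMD12, all of them cap genes. The opposite order was found for 7 genes (15.2%, against 4.95% of all tested genes), PSMA7, PSMB6, PSMB7, PSMB10, PSMD2, PSMD8 and PSMG4. The coefficient of variation was larger in siMAD2L1 for 32 of the 46 genes (69.6%, against 67.0% of all tested genes). Without siMAD2L1 replicate 1, 11 of the 46 proteasome genes were called lower and 2 higher. They were the 6 genes called over all libraries (PSMA1, PSMA2, PSMB8, PSMB9, PSME2 and PSMF1) and PSMA3, PSMA4, PSMD1, PSMD2, PSMD5, PSMD10 and PSMD12. Calls over all 14790 tested genes rose then too, from 1446 to 2422, of which 1706 were lower and 716 higher.

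None of the 7 assembly chaperones passed, where 9.78% of all tested genes were called, although their median log2 fold change was -0.28. PSMG1 to PSMG4 help to build the alpha ring, and PSMD5, PSMD9 and PSMD10 help to build the base of the cap. PSMD9, the most abundant, measured 88.9, 84.2 and 86.8 TPM in siControl and 94.7, 119 and 99.5 TPM in siMAD2L1, above siControl in every library (log2 fold change 0.26, limma adjusted p = 0.142). PSMG1 measured 69.5, 60.1 and 72.5 TPM in siControl and 57.1, 42.7 and 62.3 TPM in siMAD2L1, with overlapping ranges (log2 fold change -0.33, limma adjusted p = 0.209). PSMD10, also known as the oncoprotein gankyrin of liver cancer, had log2 fold change -0.45 (adjusted p = 0.0718) and PSMD5 -0.51 (adjusted p = 0.119), both with ranges that did not overlap. So the chaperones of the cap base stood on both sides of siControl.

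**Figure D5:**
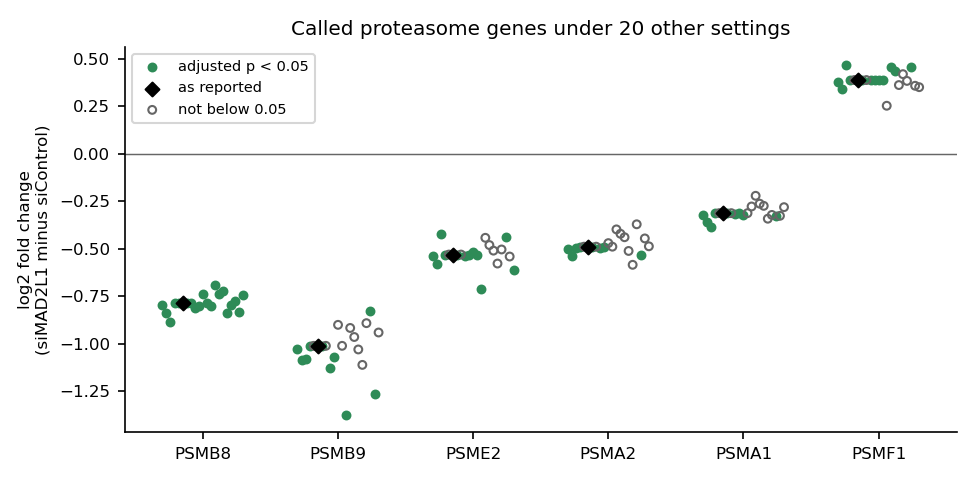
Log2 fold change of the 6 called proteasome genes as reported (diamonds) and in 20 alternative fits (circles), filled where the adjusted p stayed under 0.05 and open where it did not. PSMB8 is filled throughout, the other 5 have open circles, and none of the 6 changes direction.

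Partners of the proteasome with other names were read from a fixed list of 14 genes, and none passed, where 9.78% of all tested genes were called. Their median log2 fold change was 0.08. ADRM1, a ubiquitin receptor of the cap, measured 296, 315 and 308 TPM in siControl and 322, 373 and 366 TPM in siMAD2L1 (log2 fold change 0.20, limma adjusted p = 0.141). The small cap subunit SEM1 had log2 fold change 0.05 (limma adjusted p = 0.859). Of 13 tested genes for ubiquitin and its carriers none passed either, with a median of 0.05. The polyubiquitin gene UBB measured 1598, 1822 and 1453 TPM in siControl and 1128, 1404 and 1202 TPM in siMAD2L1. Every siMAD2L1 library lay below every siControl library, but the difference did not pass (log2 fold change -0.38, limma adjusted p = 0.0673).

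NFE2L1 is the transcription factor that raises proteasome genes when the proteasome falls short, and it works with small MAF partners. Of 13 genes of this pathway 2 were called higher (15.4%, against 3.55% of all tested genes), both of them small MAF genes. None was called lower (6.23% of all), though VCP came close (log2 fold change -0.27, limma adjusted p = 0.0507). The median log2 fold change was 0.12, beside -0.08 over all tested genes. The siMAD2L1 range lay above siControl for 6 of the 13 and below it for 3 (NFE2L3, VCP and NPLOC4), where 11.3% and 21.5% of all tested genes did so. MAFF measured 28.5, 29.05 and 26.1 TPM in siControl and 45.8, 43.6 and 42.9 TPM in siMAD2L1 (log2 fold change 0.64, SE 0.0895, limma adjusted p = 0.00644, kept in all 20 alternative fits). MAFK measured 19.7, 19.7 and 20.7 TPM in siControl and 26.8, 28.8 and 28.1 TPM in siMAD2L1 (log2 fold change 0.46, SE 0.0931, limma adjusted p = 0.0231, and 0.109 without siControl replicate 1). NFE2L1 itself had log2 fold change 0.20 (limma adjusted p = 0.185).

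The core of the antioxidant response element to which NFE2L1 binds, TGACNNNGC on either strand, occurred in the promoter window of 15 of 42 proteasome genes (35.7%) and of 16.1% of all genes. Of the 6 called genes PSMB9 and PSME2, which both fell, held it, and PSMB8, which also fell, did not. Genes that were not called held it as well, among them PSME1, PSMA4 and PSMC4. The part of the match in the result was not tested. The stretches around it are given to show where the match lies, in capitals. They read on the strand of the gene, and in PSMB9 the match is on the opposite strand.
PSMB9, chr6:32854034-32854062, plus strand: gggcggggctGCCTCGTCActtgtctcgg
PSME2, chr14:24146767-24146795, minus strand: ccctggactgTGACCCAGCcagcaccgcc
The NF-Y motif CCAAT occurred in 47.6% of the proteasome promoters and 39.7% of all, and the ETS motif CCGGAAG in 35.7% and 12.2%. PSMF1 held 2 ETS matches, and PSMA2 and PSMB9 held CCAAT. For PSMA1 no match was listed, and whether its promoter was among the 42 searched is not shown here.

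Processed pseudogenes copy several proteasome genes and can take or give reads. Of 42 annotated pseudogenes of members in the table, 3 had a mean of at least 1 TPM. They were PSMC1P1 (8.38 TPM), PSME2P5 (1.68 TPM) and PSMD10P2 (1.07 TPM), and none passed (limma adjusted p = 0.635, 0.476 and 0.311). The level of PSME2P5 was small beside the 77.7 to 112 TPM of PSME2.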

How the data were processed

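RNA of 6 SNU449 libraries was sequenced. The deposited table holds TPM, made by the authors, and each column sums to 1000000, so depth is unknown. The submitters' processing notes name fastp, HISAT2, DESeq2 1.16.1 and hg38; the counter, annotation and strand setting were not given in the sources used here. Columns were matched to libraries by group and number. Members and lists were chosen with earlier results of these data known. A filter at mean TPM 1 kept 14790 genes and log2(TPM + 1) was fitted with limma 3.58.1 in R 4.3.3 (intensity trend, no covariates), with Benjamini-Hochberg adjustment over all of them and calls at 0.05. Fold changes are on that scale and understate low genes. The fit for siMAD2L1 against siControl was tested on simulated data (10 sets, 14790 genes): 18.4% of changes of 0.5 in log2 were recovered, 61.6% of 1, 83.8% of 1.5 and 92.2% of 2. These shares are for genes drawn from those of the fit with a mean log2(TPM + 1) above 2, not for the proteasome genes. Median coefficients of variation in siControl were 5.22% for proteasome genes and 10.6% over all tested genes. Exact permutation tests were two-sided. Per-library values are given for called members and the 2 most abundant of each role, and in the other lists for up to 8 called genes, or the 2 most abundant where none was called; additions are marked, and a few of these genes are not reported here. Alternatives changed pseudocount, filter, scaling, variance model, block or libraries. Positions are from GENCODE 29, promoters from RefSeq GRCh38.p14; 7 members carry an assembled-transcript identifier. Python 3.11.15 and matplotlib 3.10.9 were used.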

Additional observations from a re-analysis of the deposited data

How the results depend on the processing

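The direction of all 6 called proteasome genes held in all 20 alternatives, and the call of PSMB8 in all 20, of PSME2 and PSMF1 in 12, of PSMB9 in 10, of PSMA1 in 9 and of PSMA2 in 8. The causes of the losses were not tested. Proteasome genes called lower numbered 1 with upper-quartile scaling, 3 with quantile normalization, 1 with a length trend removed, and 9 when mitochondrial genes and the 20 highest were left out. Without a filter 727 genes were called, 0 proteasome genes higher and 1 lower; without a variance trend 952, 0 and 1; with library weights 4860, 3 and 17. With a library left out the calls ranged from 326 to 2422, with 0 to 2 proteasome genes higher and 1 to 11 lower, and MAD2L1 from -2.61 to -1.80. With the replicate number as a block 868 genes were called, and 2 proteasome genes lower (PSMB8 and PSME2, with PSMF1 higher). The calls of PSMA1 (limma adjusted p = 0.0768), PSMA2 (0.052) and PSMB9 (0.0688) ended there. Same-numbered libraries were barely correlated (0.019, 0.009 and 0.063). For siControl replicates 1 and 3 the same-numbered siMAD2L1 library correlated best, but for siControl replicate 2 it was siMAD2L1 replicate 1 (0.034). All these correlations were small, so the numbers were not taken as pairs.

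Signs of uncalled genes turned as follows. With upper-quartile scaling PSMB7 was at 0.0080 and PSMC6 at 0.0029. With quantile normalization PSMA7 was at -0.14 and PSMD8 at -0.012. With mitochondrial genes and the 20 highest left out PSMA5 was at -0.0049 and PSMA7 at -0.040, and over protein-coding genes PSMA7 at -0.0011. With a length trend removed the ATPase median was 0.014, PSMB4 0.0028, PSMB5 0.034, PSMB6 0.054, PSMB7 0.057, PSMC2 0.0021, PSMC4 0.022, PSMC6 0.0071, PSMD7 0.032 and MAD2L2 0.024. With library weights PSMB6 was at 0.0275, PSMC1 at -0.093 and PSMD11 at 0.015. In siMAD2L1 replicate 1 alone, a single library assumed to vary like siControl, the median was 0.023 over all genes, 0.084 for ATPases and 0.021 for other cap subunits; PSMA7 was at -0.0099, PSMB10 -0.10, PSMC2 0.11, PSMC6 0.29, PSMD2 -0.021, PSMD6 0.021, PSMD7 0.14, PSMD8 -0.17, PSMD11 0.081, PSMD12 0.52 and PSMG4 -0.13. With a library left out the ATPase median ran from -0.11 to 0.036, MAD2L2 from -0.15 to 0.012, PSMA5 from -0.080 to 0.14, PSMA7 from -0.042 to 0.057, PSMB6 from -0.12 to 0.069, PSMB7 from -0.082 to 0.016, PSMC1 from -0.081 to 0.13, PSMC2 from -0.19 to 0.012, PSMC6 from -0.21 to 0.059, PSMD11 from -0.16 to 0.066, PSMD12 from -0.37 to 0.14 and PSMG4 from -0.049 to 0.15. TPM carry no depth, so no counting error is given.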
